A study of Macaca fascicularis with 132 samples.

Results

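The genes described here are 69 of the 10811 genes that reached 5 CPM (counts scaled to a common library total) on average in at least 1 untreated group, out of 38550 rows in the cynomolgus count table. They were chosen from their measured response: log2(CPM + 1), averaged over 4 animals, had to be at least 0.4 higher with IL-15 than in the untreated control at 2 h, a 1.32-fold difference in CPM + 1, and within 0.25 of the control at both 24 and 48 h. The differences at 2, 24 and 48 h therefore chose the members and are given as a description, with no test. The samples taken at 6 and 12 h, and those taken at 0 h, entered none of these differences, and the tests rest on them.

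The cells were peripheral blood mononuclear cells (PBMCs) of cynomolgus macaques, a mixture of lymphocytes and monocytes, cultured outside the body. The treated groups received 40 ng/ml of heterodimeric IL-15 (IL-15 bound to its receptor chain IL-15Ra) and were collected at 2, 6, 12, 24 and 48 h. The control groups received no IL-15 (0 ng/ml) and were collected at 0, 2, 6, 12, 24 and 48 h. Each of the 11 groups held the same 4 animals, of both sexes, with 3 numbered libraries per animal. The series' design text gives a larger number of animals, and animals other than these 4 were not analysed here.

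IL-15 is a cytokine that maintains natural killer cells and memory CD8 T cells. It is shown to responding cells on IL-15Ra and signals through the IL-2 receptor beta chain and the common gamma chain, which engage the kinases JAK1 and JAK3 and the transcription factor STAT5. Cytokine pathways of this kind commonly switch on a first set of genes within hours, some of which encode inhibitors of the pathway itself, while other targets stay high for as long as the signal lasts. The table identifies genes by Ensembl ID alone, and 0 of the IDs could be paired with a symbol, so no role is given to any member and the PBMC label was not checked against cell type markers. In bulk RNA, a change in the number of cells of a type and a change in RNA per cell cannot be told apart.

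Library totals ran between 16423972 and 87944372 counts, with a median of 27185130, and the summed libraries of an animal in a group held between 54376963 and 126025607 counts. Nothing in the labels says whether the 3 libraries came from separate cultures, so they were summed and the 4 animals are the replicates. Of these libraries, 3 stood apart from the other libraries of the same animal and group: library 1 of animal 38142 in the control at 48 h, library 2 of animal 38147 with IL-15 at 24 h, and library 3 of animal 38157 in the control at 2 h. Their root mean square distances to the nearest sister library were 0.862, 0.407 and 0.451 on the log2 scale, against a median of 0.196 over all libraries. All 3 belong to groups that the choice of members used.

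The control library at 2 h had the most bearing on who was a member. Without it, the same rule gave 43 genes, of which 39 were among the 69, and 30 of the 69 fell short of the required difference at 2 h, the lowest with 0.30. The median difference at 2 h over the 69 genes was then 0.42, against 0.46 with it, and every member was still higher with IL-15 in each of the 4 animals. Without all 3 libraries the rule gave 38 genes, of which 34 were members. Results below are given for those 34 genes as well where they differ.

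At 2 h the members' differences between IL-15 and control ran from 0.40 to 1.20, with a median of 0.46 and quartiles of 0.43 and 0.54, while the median over all genes above the CPM floor was 0.02. Most members thus sat close to the threshold: the lowest values inside it were 0.403, 0.406 and 0.407, and the nearest outside were 0.395, 0.395 and 0.393. All 69 genes were higher with IL-15 in every animal. In 20 members the lowest IL-15 animal exceeded the highest control animal, and in the other 49 the groups overlapped. This was not counted over all genes, and the rule chose on these values, so the count only describes the members. Animal by animal, the median difference was 0.53 in 38142, 0.43 in 38147, 0.36 in 38155 and 0.58 in 38157. Animal 38155 showed the smallest difference for 40 of the 69 genes. In animal 38157 the median was 0.37 without the library that stood apart.

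Late in the culture the limits that chose the members hold the values between -0.24 and 0.25. The members' median difference was -0.07 at 24 h and 0.01 at 48 h, where all genes above the floor had medians of -0.14 and -0.07. The values nearest to the limit were 0.2476 inside and -0.2517 outside at 24 h, and 0.2499 inside and -0.253 outside at 48 h. These values scale each library by its total. TMM scaling lowers the weight of a few very abundant transcripts. With it, the members' median log2 fold change was 0.10 at 24 h and 0.12 at 48 h, and with library totals it was -0.07 at 24 h and 0.01 at 48 h. The change of scaling from TMM to library totals shifted the median log2 fold change of all genes tested by -0.17 at 24 h and -0.11 at 48 h.

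**Figure D1:**
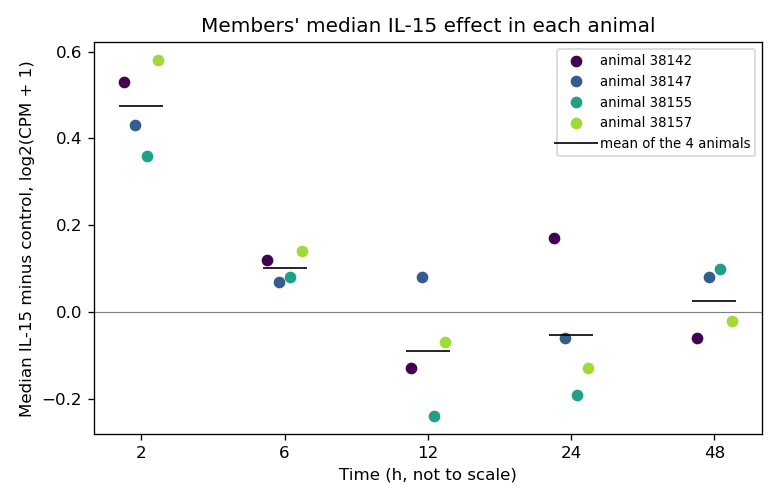
Median over the 69 members of the difference between IL-15 and control in log2(CPM + 1), for each of 4 animals (points) and their mean (bar), at each time. All 4 animals lie between 0.36 and 0.58 at 2 h, between 0.07 and 0.14 at 6 h, and on both sides of 0 from 12 h on.

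At 6 h, a time the choice did not use, the response of the members was uneven. The rule itself held every member to at least 0.4 at 2 h, so the wider spread at 6 h is not read as a change over time. Of the 69, 20 (29%) were higher with IL-15 in edgeR's quasi-likelihood test with Benjamini-Hochberg adjustment over all 18197 genes tested, and 1 gene was lower. That 1 gene met the CPM floor in the control at 6 h alone, so a high control at 6 h was a condition of its choice. Over all genes tested, 5.12% were called higher and 3.54% lower, and over the genes above the CPM floor 7.19% and 4.7%. The 20 genes had log2 fold changes of 0.24 to 0.96, with a median of 0.41, and each of the 20 was higher with IL-15 in all 4 animals on the log2(CPM + 1) scale. The median over all 69 members was 0.12, and 57 of the 69 fold changes were above 0, while the median over all genes was -0.01. The groups separated fully in 8 members, in which every IL-15 animal lay above every control animal. The share of all genes that separated in this way was not computed, so no excess is read from this count.

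The count at 6 h was smaller when 1 animal was left out of the fit. It was 11 without animal 38142, 19 without 38147, 10 without 38155 and 10 without 38157. The lower gene was called in each of these fits, which adds no support, since only the control at 6 h brought it over the CPM floor. Of the 34 genes that were also members without the libraries that stood apart, 10 were called higher at 6 h, which is 29.4%, and their median log2 fold change was 0.13. The share did vary with the scaling used in the rule. Of the 33 genes that were also members with TMM scaling there, 7 (21.2%) were called higher, with a median of 0.08. Of the 36 others, 13 (36.1%) were called higher, with a median of 0.15.

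The members' median difference at 6 h was 0.12 in animal 38142, 0.07 in 38147, 0.08 in 38155 and 0.14 in 38157, so the animals lay closer together than at any of the other 4 times, with an SD of their medians of 0.03. The column names carry unexplained tokens, and where libraries of both groups share a token the median difference at 6 h was 0.05, 0.16 and -0.04, each in 1 animal. No batch as such is given in the labels. The part of these tokens in the result was not tested beyond a fit of single libraries that takes them as a term. It called 23 members higher, as did the fit of single libraries without that term. Both fits count the 3 libraries of an animal as replicates, unlike the fit of sums.

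At 12 h the members showed no common direction. By edgeR's quasi-likelihood test 14 members (20.3%) were higher with IL-15 and 0 were lower, where 17.5% of all genes tested were called higher and 14% lower, and of the genes above the CPM floor 25.4% were called higher and 16.8% lower. This share of higher calls is near the background. At an unadjusted p under 0.05, 23 of the 69 members passed. So did 7517 of the 18197 genes tested and 5626 of the 10811 above the CPM floor. DESeq2 called 13 members higher and 1 lower. With the sums of 1 animal at 1 time as a block, 16 were higher and 2 lower. Shares over all genes are not given for DESeq2 and the block fit, so no excess is read from their counts. The 14 genes had log2 fold changes of 0.25 to 0.65, with a median of 0.38, and 7 of the 14 were higher in all 4 animals on the log2(CPM + 1) scale. The median over all members was 0.06. In no member did every IL-15 animal lie above every control animal, again without a share over all genes for comparison.

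The direction at 12 h turned with the scaling. With library totals in place of TMM, 6 members were higher and 12 lower, and the members' median log2 fold change was -0.13. Over all genes tested, library totals called 9.63% higher and 28% lower. The median of all genes moved by -0.19, from -0.041 to -0.227, so the turn was not particular to the members. The split between higher and lower members at this time therefore has no single answer. Without animal 38142 the count of higher members was 8, and without 38157 it was 7. Of the 34 genes that stayed members without the libraries that stood apart, 9 (26.5%) were called higher and 0 lower. Of the 33 that stayed members with TMM scaling in the rule, 5 (15.2%) were called higher, and of the 36 others 9 (25%). Among libraries that share a token, the median difference in log2(CPM + 1) was -0.05 in 1 animal, -0.06 over 3 animals and 0.02 in 1 animal, and over all libraries it was -0.12.

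Of the 20 members higher at 6 h and the 14 higher at 12 h, 11 were shared, which is 55% of the first list and 78.6% of the second. For those 11 the fold changes had a log2 median of 0.67 at the earlier and 0.43 at the later time. For the 9 called at 6 h alone these medians were 0.38 and 0.18. The remaining members include 46 that were called higher at neither time, with medians of 0.06 and -0.04. The fold change at 6 h and that at 12 h had a Pearson correlation of 0.82 over the 69 members, which come from the same animals and are not independent replicates. The difference at 2 h had a correlation of 0.08 with the fold change at 6 h.

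The change between 6 and 12 h was also fitted directly, as the IL-15 effect at 12 h minus that at 6 h. In edgeR 0 members passed in either direction, as did 0 in DESeq2. Over all genes tested, 0.0769% were called higher and 0.022% lower. At an unadjusted p under 0.05 in edgeR, 5 of the 69 members passed, as did 2024 of the 18197 genes tested. The members' median was -0.11, and 16 of the 69 values were above 0. That the effect was smaller at 12 h than at 6 h was thus not shown for any single member.

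**Figure D2:**
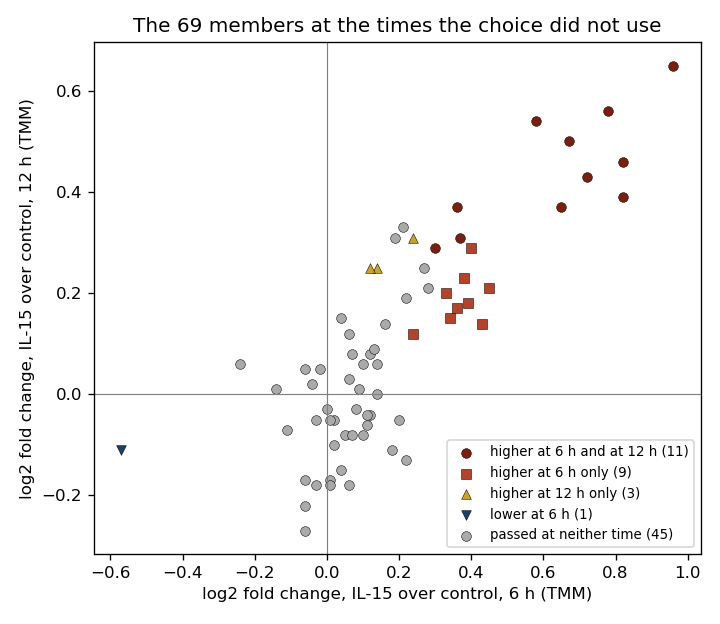
Log2 fold change of IL-15 over control at 6 h (horizontal) and at 12 h (vertical) for the 69 members, from the edgeR fit with TMM scaling; marker shape and colour give the call at each time. The 11 genes called at both times lie at the upper right, with log2 fold changes of 0.30 to 0.96 at 6 h, and 46 genes called higher at neither time spread around 0.

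Other genes with the same early difference lend a comparison. In all, 271 genes above the floor had a difference of at least 0.4 at 2 h, and 202 of them are not members because the difference at 24 or 48 h was too large: in 153 it was positive and in 49 negative. At 6 h, 56.4% of the 202 were called higher and 1 gene lower, with a median log2 fold change of 0.54, against 0.12 in the members. At 12 h, 63.4% were called higher and 10 genes lower, with a median of 0.57, against 0.06 in the members. The 2 sets were separated by their late response, so these values are a description and no test of the difference between them was made.

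**Figure D3:**
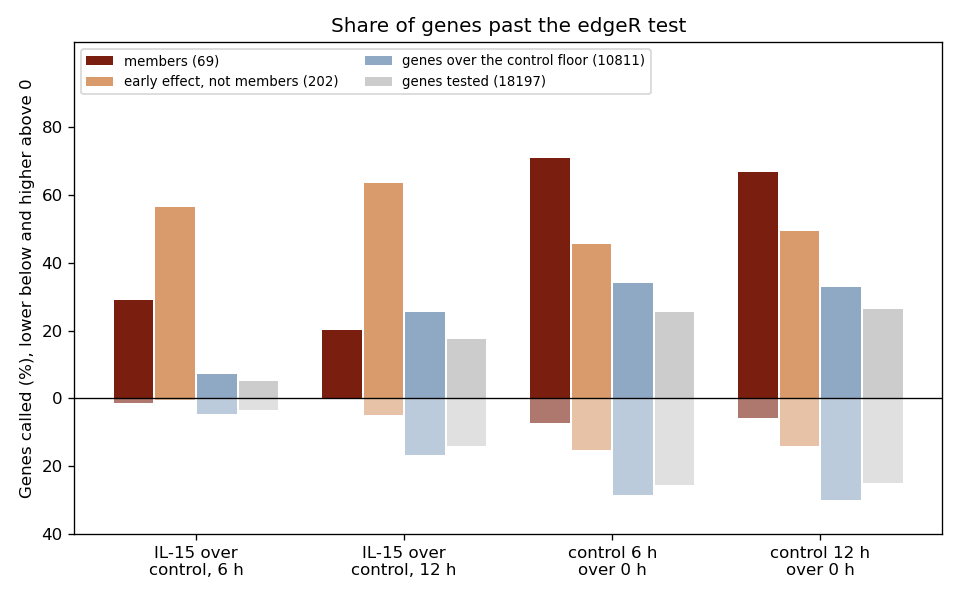
Share of genes called higher (above 0) or lower (below 0) at an adjusted p under 0.05 in 4 comparisons, for the 69 members, the 202 other genes with the early difference, the 10811 genes above the CPM floor and all 18197 genes tested. Of the members, 29% were called higher with IL-15 at 6 h and 20.3% at 12 h, while 71% were called higher in control culture at 6 h over 0 h and 66.7% at 12 h over 0 h.

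In culture without IL-15, most members rose. At 6 h, 49 of the 69 (71%) were higher than at 0 h and 5 (7.25%) were lower in edgeR's quasi-likelihood test, where 25.5% of all genes tested were called higher and 25.5% lower, and of the genes above the CPM floor 33.9% higher and 28.6% lower. At 12 h, 46 (66.7%) were higher than at 0 h and 4 lower, where 26.4% of all genes tested were called higher and 24.9% lower, and of the genes above the CPM floor 33% higher and 30% lower. The genes that rose at 6 h had log2 fold changes of 0.26 to 1.76, with a median of 0.77, and all 49 were higher in each of the 4 animals. Of these, 45 had also risen at 12 h, so 91.8% of the first list and 97.8% of the second were shared. The control samples at 6 h are also the reference of the IL-15 effect at 6 h, and those at 12 h of the effect at 12 h, so the culture change and the IL-15 effect at these times share samples. Many of the 202 other genes with the early difference rose in control culture too. At 6 h, 45.5% of them were called higher and 15.3% lower, and at 12 h 49.5% higher and 13.9% lower. Their fold changes over 0 h had log2 medians of 0.28 (6 h) and 0.29 (12 h). The rise was thus not particular to the members, and its size in the 2 sets was not compared by a test.

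The rise in culture was larger with library totals, which gave 56 members higher and 2 lower at 6 h and a median log2 fold change of 0.82, against 0.64 with TMM. Over all genes tested, library totals called 33.5% higher and 17.2% lower. The median of all genes moved from -0.034 with TMM to 0.145, so the added rise was not particular to the members. Of the 34 genes that stayed members without the libraries that stood apart, 21 (61.8%) had risen at 6 h and 2 had fallen, with a median of 0.44, and 19 (55.9%) had risen at 12 h and 3 had fallen, with a median of 0.37. The median over all 69 members at 12 h was 0.57. Of the 35 others, 28 (80%) had risen at 6 h, with a median of 0.77, and 27 (77.1%) at 12 h, with a median of 0.79. The CPM floor that chose the members counted the control at 6 and 12 h among its groups: 4 members were under it at 0 h and met it in a later control group, so they had to be higher there, and all 4 are among the 49 and the 46.

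The levels across the whole course put the early difference in place. Relative to the 0 h control, the members' median log2(CPM + 1) stood at 0.40 with IL-15 at 2 h, with quartiles of -0.01 and 0.81, and at -0.10 in the control at 2 h, with quartiles of -0.50 and 0.28. From 6 h on the curves ran close together. With IL-15 the median stood at 0.90 (6 h), 0.69 (12 h), 0.72 (24 h) and then 0.85 (48 h). For the control it was 0.80 (6 h), 0.82 (12 h), 0.78 (24 h) and then 0.92 (48 h). All genes above the floor had medians between -0.08 and 0.33 in these groups. With IL-15, 56 of the 69 were higher at 6 h than at 2 h, and 13 were not, ENSMFAG00000033010, ENSMFAG00000045409 and ENSMFAG00000044171 among them. In the control, 62 of the 69 were higher at 6 h than at 2 h. The rule chose on the 2 h samples and these changes were not counted over all genes, so both counts only describe the members.

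**Figure D4:**
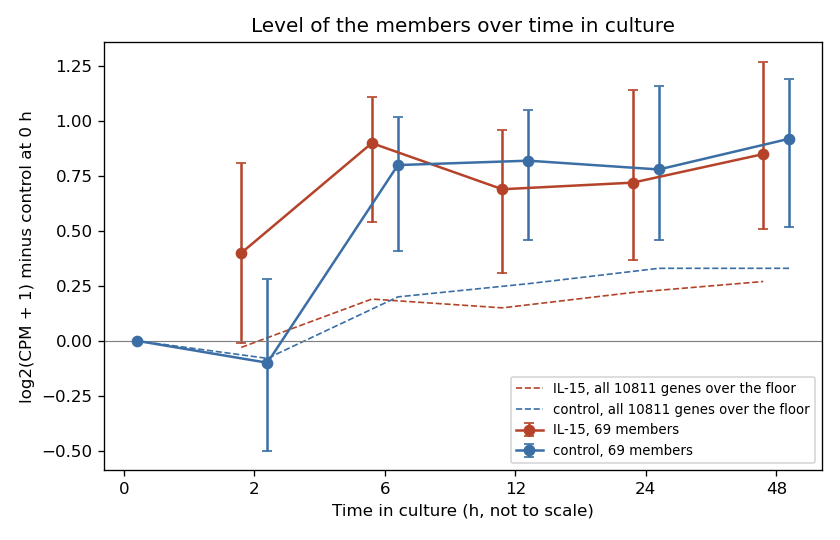
Median of log2(CPM + 1) minus the 0 h control over the 69 members (points, with quartiles as bars) and over all 10811 genes above the CPM floor (dashed), with IL-15 and in the control, by time. The members differ at 2 h (0.40 with IL-15 and -0.10 in the control) and both curves reach 0.69 to 0.92 from 6 h on.

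Counted gene by gene, the level with IL-15 at 2 h stood between the control at 2 h and the control at 6 h in 49 members. With IL-15 at 2 h, 49 of the 69 were above the 0 h level. In the control at 2 h, 39 members were below it, 36 without the library that stood apart, and 34 of the 39 were above it at 6 h. For 19 genes the level at 2 h was above that at 0 h with IL-15 and below it in the control, and for 20 it was below in both, so in those 20 the early difference was a smaller drop with IL-15 and not a rise. A low control at 2 h helps a gene to meet the rule, so these counts describe the members and test nothing.

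**Figure D5:**
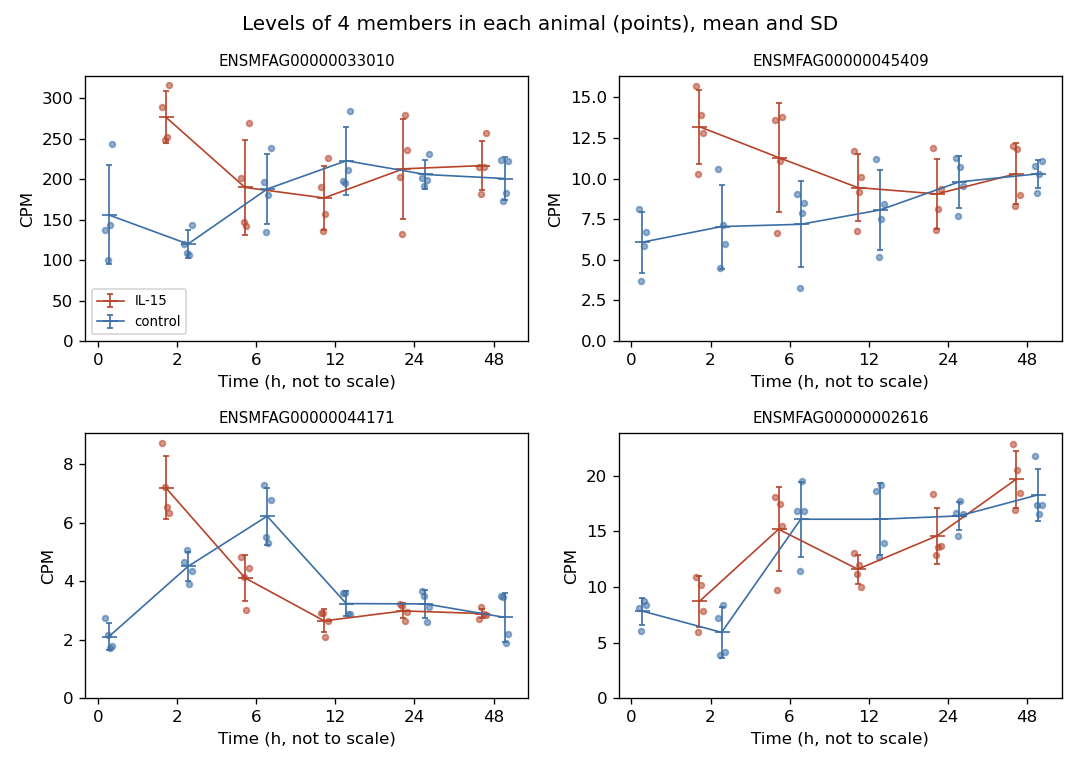
CPM of 4 members with IL-15 and in the control at each time; points are the 4 animals, and the line joins the means with SD bars. At 6 h ENSMFAG00000033010 averages 190 CPM with IL-15 and 188 CPM in the control, ENSMFAG00000045409 11.3 and 7.19 CPM, ENSMFAG00000044171 4.11 and 6.22 CPM, and ENSMFAG00000002616 15.2 and 16.1 CPM.

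ENSMFAG00000033010 had the largest difference at 2 h, 1.20. Its levels with IL-15 at 2 h were 289.1, 248.7, 252.4 and 316.7 CPM in animals 38142, 38147, 38155 and 38157, against 120.5, 108.3, 106.9 and 143.2 CPM in their controls. All 4 treated animals lay above all 4 controls. At 6 h the 4 animals had 202.1, 147.1, 142.9 and 269.1 CPM with IL-15 and 196.8, 135.2, 180.4 and 239 CPM in the control, and the groups overlapped. Its log2 fold change was 0.04 ± 0.13 (SE, adjusted p = 0.91, edgeR) at 6 h and -0.15 ± 0.13 (adjusted p = 0.41) at 12 h. With library totals it was called lower at 12 h (-0.34, adjusted p = 0.038, edgeR), where the median of all genes moved by -0.19. On that scale, as log2(CPM + 1), each of the 4 animals was lower with IL-15 at 12 h. In the control its level averaged 188 ± 42.9 CPM at 6 h and 156 ± 61.2 CPM at 0 h (SD, n = 4 each), a difference that did not pass (adjusted p = 0.51, edgeR). This gene thus had a higher level with IL-15 at 2 h than the control reached on average at any time, the highest control mean being 223 ± 42 CPM at 12 h.

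ENSMFAG00000045409 had the second largest difference at 2 h and was also called higher at 6 h. With IL-15 at 2 h it had 15.7, 10.3, 13.9 and 12.8 CPM, against 10.6, 4.48, 7.16 and 5.98 CPM in the control of the same animals; each animal was higher with IL-15, while the groups overlapped, since the control of animal 38142 was above the treated sample of 38147. At 6 h the levels were 13.6, 6.63, 11.1 and 13.8 CPM with IL-15 and 9.07, 3.29, 7.88 and 8.5 CPM in the control, with animal 38147 the lowest in both groups. This gene rose with IL-15 at 6 h, its log2 fold change being 0.72 ± 0.13 (SE, adjusted p = 0.00028, edgeR). At 12 h the log2 fold change was 0.43 ± 0.13 (adjusted p = 0.012, edgeR). That call was lost with library totals (0.25, adjusted p = 0.17), without animal 38155 (0.38, adjusted p = 0.13) and without animal 38157 (0.40, adjusted p = 0.058). Over all 14 alternatives the adjusted p at 12 h lay between 1e-04 and 0.17. The lowest came from single libraries with the token as a term, a fit that counts the 3 libraries of an animal as replicates. In control culture it averaged 7.19 ± 2.64 CPM at 6 h and 6.09 ± 1.87 CPM at 0 h, a difference that did not pass (adjusted p = 0.86, edgeR).

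ENSMFAG00000044171 was the 1 member called lower with IL-15 at 6 h. At 2 h it had 8.71, 7.21, 6.53 and 6.33 CPM with IL-15, against 4.64, 5.08, 3.91 and 4.36 CPM in the control, with no overlap. At 6 h the order had turned: it had 4.82, 4.15, 3.01 and 4.45 CPM with IL-15, against 7.28, 5.51, 5.29 and 6.78 CPM in the control, again with no overlap. The log2 fold change at 6 h was -0.57 ± 0.11 (SE), and it lay between -0.63 and -0.54 when each animal was left out. At 12 h the gene had 2.64 ± 0.389 CPM with IL-15 and 3.23 ± 0.421 CPM in the control (SD, n = 4 each). In the control it had 6.22 ± 0.969 CPM at 6 h and 2.1 ± 0.468 CPM at 0 h, a log2 fold change of 1.40 ± 0.12 (SE). It met the CPM floor of 5 in the control at 6 h alone, so its values at 6 h are a description, and no p is given. Its highest mean came at 2 h with IL-15 (7.19 ± 1.08 CPM) and at 6 h in the control.

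ENSMFAG00000002616 had the next lowest average over 6 and 12 h. Its levels at 12 h were 13.1, 11.2, 12 and 10 CPM with IL-15, against 18.6, 12.7, 19.2 and 14 CPM in the control; each animal was lower with IL-15, and only 1 treated value reached into the control range. The log2 fold change was -0.27 ± 0.12 (SE, adjusted p = 0.086, edgeR) and did not pass. With the sums of 1 animal at 1 time as a block it passed (-0.29, adjusted p = 0.02, edgeR). It passed in 7 of 14 alternative fits, that one and library totals (-0.46, adjusted p = 0.0087) among them, and over all 14 the adjusted p lay between 0.0087 and 0.22. Also among the 7 were the edgeR fits of single libraries (adjusted p = 0.0087, 0.012 and 0.018). Those fits count the 3 libraries of an animal as replicates, unlike the fit of sums. In control culture the gene rose by 0.85 ± 0.12 at 6 h (adjusted p = 3.9e-07) and by 0.77 ± 0.12 at 12 h over 0 h (adjusted p = 2.2e-06, edgeR).

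A further 4 members were singled out after their values were seen and are given without an ID. The member with the highest CPM at 0 h, with no adjustment for gene length, had 1150, 864, 1260 and 996 CPM with IL-15 at 6 h, against 693, 687, 850 and 549 CPM in the control, with no overlap. Its log2 fold change was 0.65 ± 0.13 (adjusted p = 0.00068, edgeR), and in control culture it fell by 0.79 on the log2 scale at 6 h over 0 h (adjusted p = 3.7e-06). The member with the largest fold change at 6 h had 10.4, 7.36, 15.2 and 9.21 CPM with IL-15 and 6.25, 3.43, 9.2 and 4.03 CPM in the control, and each animal was higher with IL-15. Its log2 fold change was 0.96 ± 0.14 (adjusted p = 1.2e-05) at 6 h and 0.65 ± 0.14 (adjusted p = 0.00065, edgeR) at 12 h.

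The other pair of these marks the range of the culture change. The member that rose most had 51.1, 36.6, 58.1 and 50.8 CPM in the control at 6 h, against 10, 11.9, 13.9 and 14.3 CPM at 0 h, a log2 fold change of 1.76 ± 0.11 (adjusted p = 2.1e-15, edgeR) with no overlap. With IL-15 at 6 h it averaged 47 ± 10.1 CPM, against 49.1 ± 8.99 CPM in the control. The member that fell most had 41.7, 36.6, 38.1 and 50.1 CPM in the control at 6 h, against 63.5, 54.3, 76 and 78.3 CPM at 0 h, again with no overlap (log2 fold change -0.89 ± 0.11, adjusted p = 9e-09, edgeR). At 12 h that gene averaged 58.7 ± 5.18 CPM with IL-15 and 54.1 ± 7.64 CPM in the control, a log2 fold change of 0.31 ± 0.11 (adjusted p = 0.024, edgeR).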

How the data were processed

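RNA was isolated with the Qiagen RNeasy Mini kit and libraries made with the KAPA mRNA HyperPrep kit, per the labels' protocols. The authors deposited raw counts per gene, one table against a cynomolgus and one against a rhesus annotation; the aligner, counter and build were not given in the sources used here. For each animal and group the 3 libraries were summed. CPM used library totals and log2 values a pseudocount of 1. All 44 sums were fitted together with edgeR 4.0.16 in R 4.3.3 (TMM, filterByExpr, group and animal as terms, robust quasi-likelihood test), and p-values were adjusted by Benjamini-Hochberg over 18197 genes. All 69 members passed the filter on low counts. Since nothing says the libraries are separate cultures, the sums of the 4 animals are the replicates. With animal as a term, p-values measure the spread left after each animal's own level is taken out, estimated over all 11 groups together. The labels give sums the same animal, and sums of 1 animal at 1 time deviated together (median correlation 0.807, above 0.1 in 20 of 20 pairs). Since libraries were summed, library numbers were not taken as pairs.

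The members and all lists were chosen with earlier results of these data known. With no symbols, the planned gene lists and marker checks were not run. The IDs printed are the 2 members with the largest difference at 2 h and, of those called lower at 6 or 12 h, the lowest average over both times (1 gene), followed by the next lowest average. Alternatives were DESeq2 1.42.0, other scalings, filters, fits, libraries fitted singly, left-out animals and the rhesus table. Scaling by library totals, the rhesus fits and the rule without the libraries that stand apart were added after seeing the data.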

Additional observations from a re-analysis of the deposited data

Results flagged for a closer look

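ENSMFAG00000045409 had 1 animal far from the others at 6 h. With IL-15 the animals 38142, 38147, 38155 and 38157 had 13.6, 6.63, 11.1 and 13.8 CPM, and in the control they had 9.07, 3.29, 7.88 and 8.5 CPM. In the control the gap between animal 38147 and its nearest neighbour took up a share of 0.852 of the whole range on the log2(CPM + 1) scale, past Dixon's critical value for 4 samples. This was 1 of 69 groups of values checked, and chance gives about 1 in 20, or 3.45 of the 69. The same animal was also the lowest with IL-15.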

How the results depend on the processing

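The choice of members was the step that moved most. When 1 animal was left out, the rule chose 42 of the 69 genes and 14 others (without 38142), 55 and 15 others (38147), 59 and 43 others (38155), and 44 and 7 others (38157). The rule gave 48 genes (33 of them members) with TMM scaling, 190 with a threshold of 0.3 at 2 h, 23 with 0.5, and 38 without the libraries that stand apart. The rhesus table gave 70 genes, and a pseudocount of 0.5 gave 74.

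For the 69 members, the count higher at 6 h was 10 to 19 and at 12 h 7 to 13 over the fits without 1 animal, the count lower at 12 h was 0 to 2, and the count lower at 6 h over 0 h in the control was 3 to 5. Fitted without 1 animal, ENSMFAG00000033010 at 6 h lay between -0.03 and 0.11, and ENSMFAG00000045409 in control culture at 6 h between -0.04 and 0.13.

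Library totals gave a median of 0.09 at 6 h, -0.13 at 12 h (6 higher, 12 lower) and -0.26 for 12 h minus 6 h (1 lower), and medians of 0.82 at 6 h and 0.83 at 12 h in control culture, with 2 lower at each. The count of members lower at 6 h was 3 with each comparison fitted alone, 3 with libraries fitted singly with a replicate block, 3 without the block and 2 with the column-name token as a term. The count lower at 12 h was 1 with DESeq2, with RLE size factors, with the comparison fitted alone and without the libraries that stand apart, 2 with a block for the 2 sums of 1 animal at 1 time, 6 with libraries singly with and without a replicate block, 5 with the token as a term and 3 in the rhesus table. For 12 h minus 6 h it was 3 with and without the replicate block, and the token term gave 4 lower and 1 higher. Same-numbered libraries had a median correlation of 0.0955, above 0.1 in 30 of 60 pairs. For libraries with other numbers it was -0.0418, above 0.1 in 45 of 120 pairs. Any pairing by library number was thus weak, and the main fit did not use it. Within 1 token the median was -0.04 at 6 h and 0.02 at 12 h. The cause of these shifts was not tested, apart from the scaling itself. Otherwise 250 values of named genes kept their direction and their side of the threshold. A further 184 summary values were counted as unchanged, which left room for shifts in counts. Among these, the members higher at 6 h were 15 with library totals and 25 with the comparison fitted alone, against 20 as reported.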
